A study of Mus musculus with 41 samples.

Results

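The genes described here encode the proteins of the cytosolic ribosome in 3 sorted myeloid subsets of irradiated and untreated mouse rectal tumours. A gene was included when its symbol was Rpl or Rps with a number and at most a closing a, x or l, or was Rplp0, Rplp1, Rplp2 or Rpsa, and when its mean normalised count over all libraries was at least 50. Of the 83 symbols of this form, 76 reached that mean, among 55453 genes in all. These 76 comprised 45 genes of the large subunit and 31 of the small subunit. The mean nearest above the limit was 75.3 for Rpl13a, and the nearest below it was 35.2 for Rpl3l, the muscle-restricted paralogue of Rpl3. The other genes left out were Rpl10l, Rpl32l, Rpl24, Rpl39l, Rpl6l and Rps10, with means between 0 and 9.54 in the authors' deposited tables.

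The tumours came from a luciferase-carrying mouse colon adenocarcinoma line, MC38-luc, placed in the rectum of female C57BL6 mice. Irradiated tumours received 5 Gy on each of 5 days, from day 9 to day 13 after implantation, and all tumours were collected on day 14. All sorted cells were CD45+ CD11b+. Granulocytes were positive for both Ly6C and Ly6G. Inflammatory monocytes carried Ly6C but not Ly6G. Tumour-associated macrophages (TAM) lacked both and carried F4/80. RNA-seq libraries came from 10 irradiated and 5 untreated TAM samples, 9 irradiated and 5 untreated inflammatory monocyte samples, and 7 irradiated and 5 untreated granulocyte samples, 41 in all. The subsets share tumours, since the labels number 15 tumours across all 3. The labels state no age and no genotype beyond the strain. The analysis rests on the authors' 3 comparisons of irradiated with untreated cells, so levels in single libraries, their spread and the sequencing depth are not shown. The purity of the sorts cannot be read from these comparisons either.

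A ribosome is built from a large and a small subunit, each a ribosomal RNA core clothed with many small proteins that are made in matched amounts. Messenger RNAs of these proteins begin with a run of pyrimidines, the 5′ terminal oligopyrimidine (TOP) motif, through which the kinase mTOR and the protein LARP1 control their translation and stability together. Their abundance follows growth and biosynthesis, and it is known to fall as neutrophils mature. Some ribosomal proteins also act apart from the ribosome. Rpl5 and Rpl11 bind Mdm2 with the 5S RNA and so stabilise p53, and Rps27l, a paralogue of Rps27, is a transcriptional target of p53.

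Windows of 30 bases near the annotated gene start are printed to show runs of pyrimidines. They cover 6 genes that were lower in irradiated TAM (Rpl12, Rpl5, Rps15, Rpl38, Rps6 and Rplp2) and 5 that did not pass the test there (Rps27, Rps27l, Rps9, Rps19 and Rpl27a). They were read 5′ to 3′ on the gene's strand from the RefSeq promoter table of the mouse build GRCm38.p6, an earlier build than the authors', and capitals mark a run of C and T that no other run of its window exceeds. In the Rps27l window an uncapitalised run of the same length, 9 bases, stands before it.
Rpl12 (chr2:32961732-32961761, plus strand): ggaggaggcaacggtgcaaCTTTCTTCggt
Rpl5 (chr5:107900497-107900526, plus strand): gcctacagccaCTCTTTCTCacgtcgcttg
Rps15 (chr10:80292446-80292475, plus strand): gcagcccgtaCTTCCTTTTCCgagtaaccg
Rpl38 (chr11:114668568-114668597, plus strand): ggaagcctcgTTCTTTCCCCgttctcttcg
Rps6 (chr4:86857349-86857378, minus strand): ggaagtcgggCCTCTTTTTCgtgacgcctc
Rplp2 (chr7:141447636-141447665, plus strand): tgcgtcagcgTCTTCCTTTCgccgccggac
Rps27 (chr3:90213632-90213661, minus strand): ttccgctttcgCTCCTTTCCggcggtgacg
Rps27l (chr9:66946063-66946092, plus strand): actcctctccaCTCCTCCCCgccgcctcta
Rps9 (chr7:3704024-3704053, plus strand): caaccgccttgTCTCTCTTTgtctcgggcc
Rps19 (chr7:24884612-24884641, plus strand): cgcccgggaaaccccgtcgTTCCCTTTCCC
Rpl27a (chr7:109519186-109519215, plus strand): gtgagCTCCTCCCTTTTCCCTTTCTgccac
Both sets carried such a run near the start. The run in Rps6 opened 1 base before the annotated start. In Rpl12 and Rps19 it opened 39 bases after the start. Counted from the annotated start, the run opened at -20 in Rpl5, at -12 in Rps27l and at 25 in Rps15. The runs of Rpl5 and Rps27l, of 9 bases each, thus ended before that start. Whether a printed run is the TOP motif of its messenger RNA was not tested. A RefSeq entry was found for 55 of the 76 genes. A run of at least 8 C or T on the gene's strand, between 30 bases before and 50 bases after the start, was present in 43 of these 55 (78.2%), against 7809 of all 27025 promoters in the table (28.9%). Among the genes with an entry, the run was present in 38 of 50 that were lower in irradiated TAM and in 5 of 5 that did not pass, so its presence did not set the exceptions apart. CCGGAAG, searched on both strands over the 300-base window, was present in 40.0% of the 55 promoters, against 9.1% of all. CTCTTTC, which can lie within a pyrimidine run, was present in 29.1%, against 8.0%. The TATAAA box was present in 9.1%, against 14.2%. These matches describe letters only, and no binding was measured.

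Ribosomal protein transcripts were lower in irradiated than in untreated TAM almost throughout the family. In the authors' deposited table, 69 of the 76 genes were lower at an adjusted p under 0.05 and none was higher. Over all genes tested, 12.5% were lower and 13.9% higher. Among the 10683 genes with a mean of at least 50, the background was 17.3% lower and 18.8% higher. At an unadjusted p under 0.05, 70 genes were lower and 0 were higher by the authors' DESeq2 Wald test, against 22.3% and 24.8% of the genes with that mean.

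The TAM difference varied in size between genes. The median log2 fold change of the 76 genes in the authors' deposited table was -0.58, so that irradiated TAM stood at 66.9% of the untreated level, while the median over all genes with a mean of at least 50 was 0.04. Single genes ranged from -1.20 to 0.36, with a SD of 0.27 between genes, and the middle of the family lay between -0.71 and -0.42 (quartiles). The Wald statistic, an effect over its standard error, was below 0 for 72 of the 76 genes, against 46.4% of the genes of like mean. These fold changes were read as shrunken towards 0, which understates the change of noisy genes. In bulk RNA of a sorted subset, less RNA per cell and fewer cells of a kind that carries more of it cannot be told apart.

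The large-subunit gene Rpl21 had the smallest p in TAM. In the authors' deposited table its log2 fold change was -0.84, or 55.9% of the untreated level, at adjusted p 3.7e-13. Rpl12, which sits at the base of the ribosomal stalk, had the lowest fold change at -1.20, or 43.6% of the untreated level (adjusted p 3.2e-10), in the authors' deposited table. Its window above carries a run of 8 pyrimidines.

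Of the small subunit, Rps15 was among the called genes with the smallest p in TAM. Rps15 stood at 56.6% of the untreated level (log2 fold change -0.82, adjusted p 5.6e-09) in the authors' deposited table. Rps6, the substrate of the S6 kinases downstream of mTOR, was at 60.8% in the authors' deposited table (-0.72, adjusted p 1.4e-06). Rpsa, also known as the laminin receptor precursor, was at 59.0% (-0.76) in the authors' deposited table. Rps4x, encoded on the X chromosome, was at 66.8% (-0.58) there as the authors deposited it. All 4 passed the test.

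The stalk proteins, which recruit the translation factors to the ribosome, were each lower in irradiated TAM. In the authors' deposited table Rplp0, the most abundant gene of the family by mean count per kilobase of exon, had a log2 fold change of -0.57, Rplp1 of -0.70 and Rplp2 of -0.55. Both Mdm2-binding partners of the 5S RNA passed as well, Rpl5 at -0.95 (51.9% of the untreated level) and Rpl11 at -0.58 in the authors' deposited table. Rpl3, which lines the peptidyl transferase centre, was at -0.71, and Rpl39, a small protein of the exit tunnel, at -0.78 in the authors' deposited table. Rpl22, known for a role in mouse T cell development, was at -0.57 and Rpl10, which joins late in large-subunit maturation, at -0.40 in that deposited table of the authors. Each gene named here passed the test.

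**Figure D1:**
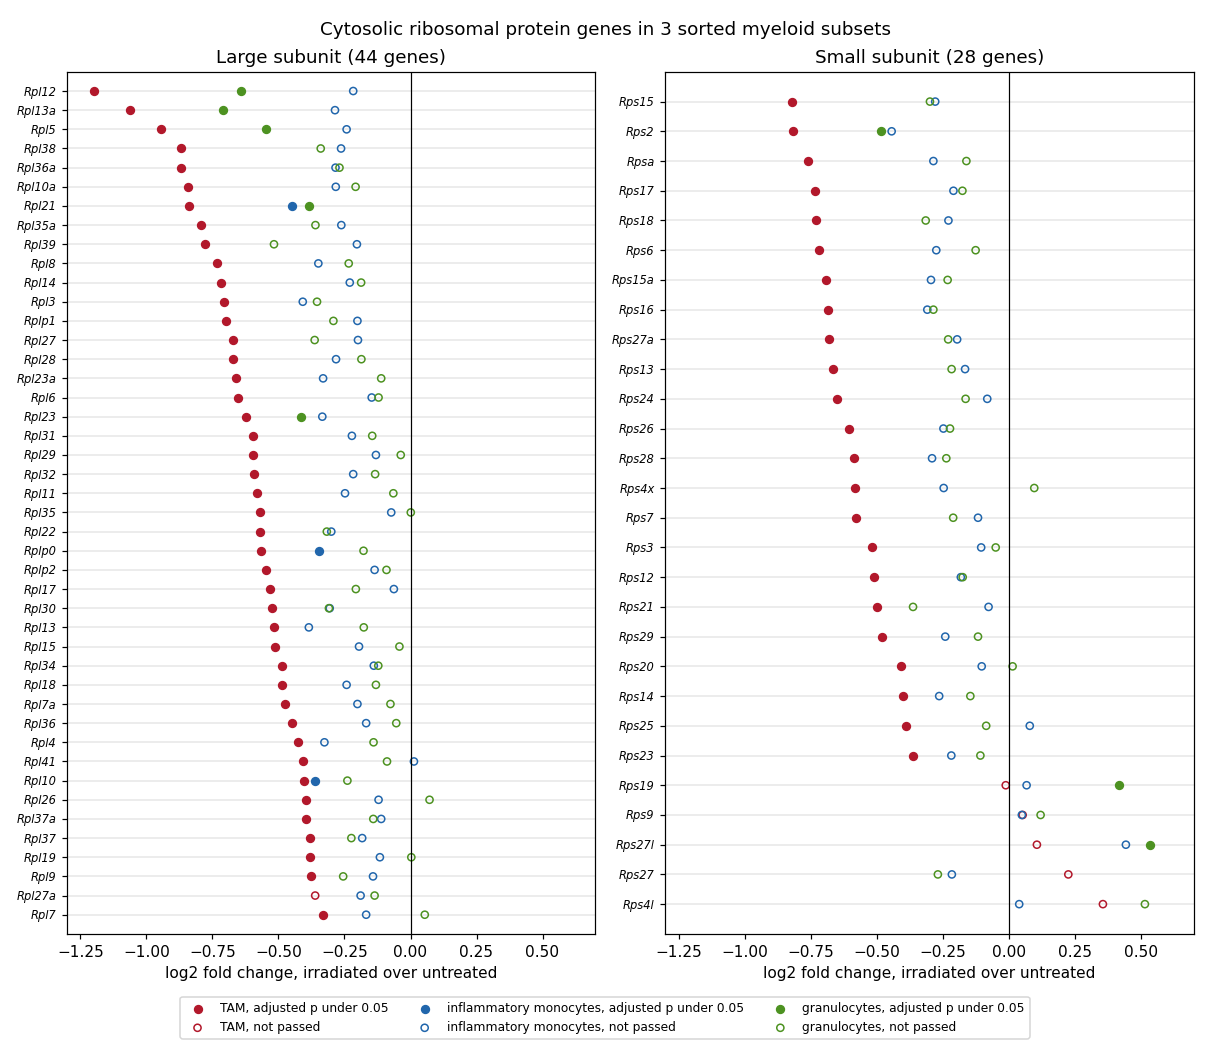
Log2 fold change of irradiated over untreated cells (horizontal axis) for 44 large-subunit genes (left) and 28 small-subunit genes (right), from the authors' deposited tables. Filled points passed at an adjusted p under 0.05 and open points did not. Red points (TAM) lie to the left of blue (inflammatory monocytes) and green (granulocytes) for most genes, and the bottom rows of the right panel hold Rps19, Rps9, Rps27l, Rps27 and Rps4l.

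The medians of the large and small subunit lay close together in each subset. In TAM, 43 of 45 large-subunit genes and 26 of 31 small-subunit genes were lower in the authors' deposited table, with median log2 fold changes of -0.57 and -0.58. In inflammatory monocytes the medians were -0.22 for both subunits, with 3 of 45 and 0 of 31 genes lower, and at an unadjusted p under 0.05 the DESeq2 test gave 13 and 8 lower, against 9.21% lower among all genes with a mean of at least 50. In granulocytes the medians were -0.18 and -0.17, with 5 of 45 and 1 of 31 genes lower in the authors' deposited table. At an adjusted p under 0.05, the background among genes with a mean of at least 50 was 17.3% lower in TAM. It was 2.30% in inflammatory monocytes and 12.1% in granulocytes. The granulocyte count of neither subunit exceeded that background. The exceptions were spread unevenly, as 5 of the 7 genes that did not pass in TAM, and both genes that were higher in granulocytes, belong to the small subunit. They include the paralogues Rps27l and Rps4l. Large-subunit paralogues such as Rpl3l and Rpl22l1 fell under the mean or outside the symbol rule. The unevenness thus depends in part on how genes were included. Subunit counts were not tested, since genes of a ribosome are not replicates.

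Of the 7 genes that did not pass in TAM, 5 had fold changes near or above 0. In the authors' deposited table Rps19, mutated in human Diamond-Blackfan anaemia, had a log2 fold change of -0.01 (adjusted p 0.96), Rps9 of 0.05 (adjusted p 0.84) and Rps27l of 0.11 (adjusted p 0.73). Rps27 was at 0.23 (adjusted p 0.29) and Rps4l, a paralogue of Rps4x, at 0.36 (adjusted p 0.18) in the authors' deposited table. None of these was higher by the test. With an approximate standard error, the 95% interval of the TAM fold change was -0.29 to 0.27 for Rps19, -0.26 to 0.36 for Rps9, -0.27 to 0.49 for Rps27l, -0.10 to 0.55 for Rps27 and -0.08 to 0.79 for Rps4l, computed from the authors' deposited table. The family median of -0.58 lay below all 5 intervals. These genes were picked for fold changes near or above 0, and the intervals are not adjusted for that choice. Their position is therefore a description and no test of a departure from the family.

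Rpl27a had a log2 fold change of -0.36 (adjusted p 0.053) in the authors' deposited table. The Rpl27a value was close to that of Rps23, which passed at -0.36 (adjusted p 0.035) in the same table the authors deposited. Both values lay at the threshold of the test.

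Some of these genes share sequence or exons with others. Rps27 and Rps27l transcripts share no exact stretch longer than 11 bases in the GENCODE M21 annotation. Rps27 shares 341 bases with the copy Rps27rt, whose mean count was 27.4 against 2775 for Rps27 in the authors' deposited tables. Rps4x and Rps4l share at most 38 bases. Exons of 35 of the 76 genes overlap exons of another gene, and 2 genes, Rpl23a and Rpl35, have at least 50% of their exon bases overlapped. How reads of overlapping genes and of pseudogenes were assigned is not given in the sources used here. Rows of ribosomal protein pseudogenes together held 0.42% of the summed mean count of the 76 genes.

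**Figure D2:**
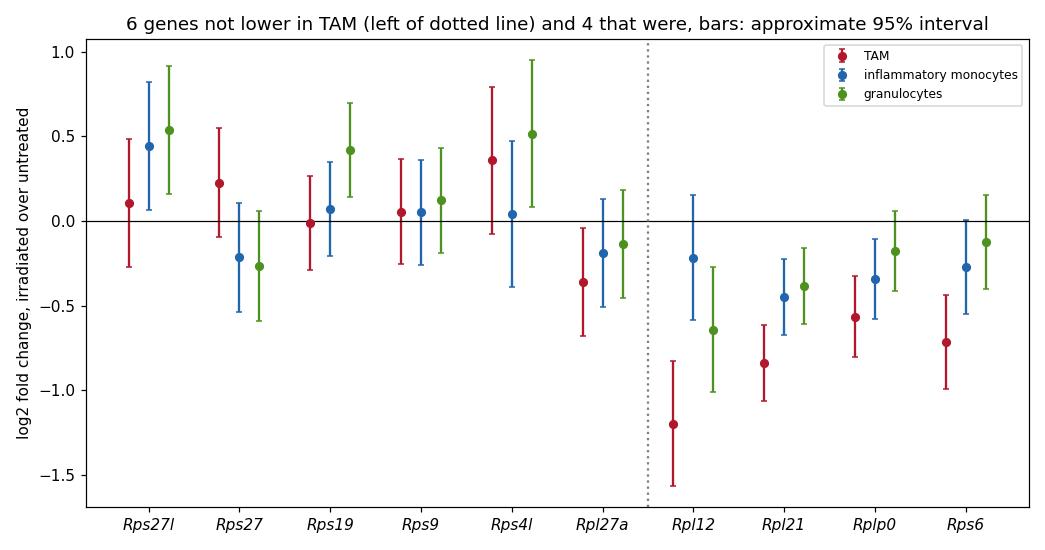
Log2 fold change of irradiated over untreated cells (vertical axis) for 6 genes that did not pass in TAM (left of the dotted line) and for Rpl12, Rpl21, Rplp0 and Rps6, in TAM, inflammatory monocytes and granulocytes. Bars are approximate 95% intervals from the largest ratio of log2 fold change to Wald statistic of a gene. In TAM the interval of Rps27l spans -0.27 to 0.49, and that of Rpl12 lies wholly below 0.

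In inflammatory monocytes the same family leaned lower, but few genes passed. By the authors' deposited table, 3 of 76 genes were lower and 0 were higher at an adjusted p under 0.05, and at an unadjusted p under 0.05 the DESeq2 test gave 21 lower and 1 higher. At that unadjusted p, 9.21% of the genes with a mean of at least 50 were lower and 12.8% higher. At the adjusted p, the background among genes with a mean of at least 50 was 2.30% lower and 4.80% higher, and over all genes tested 1.77% and 4.13%. The 3 genes were Rpl21, at 73.3% of the untreated level (log2 fold change -0.45, adjusted p 0.0022), Rplp0 at 78.7% (-0.35, adjusted p 0.046) and Rpl10 at 77.8% (-0.36, adjusted p 0.046) in the authors' deposited table. A share of 3 in 76 is near the background of the genes of like mean. The direction was more uniform than the calls: 70 of 76 Wald statistics lay below 0, against 47.5% of the genes of like mean, and the median fold change was -0.22, or 86.0% of the untreated level.

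Genes of the other roles had values of the same sign without passing. Rpl13 was at -0.39 (adjusted p 0.057), Rpl3 at -0.41 (adjusted p 0.093) and Rps14 at -0.26 (adjusted p 0.33) in the authors' deposited table of inflammatory monocytes. Rpl5 was at -0.24, Rpl11 at -0.25, Rps6 at -0.27, Rpsa at -0.29 and Rpl22 at -0.30 in that deposited table of the authors. Rplp1 was at -0.20, Rplp2 at -0.14, Rpl39 at -0.20, Rps4x at -0.25 and Rps27 at -0.22 in the authors' deposited table, all without passing. Rps27l stood on the other side at 0.44, or 136.0% of the untreated level, and an adjusted p of 0.14, per the authors' deposited table. Rps9 had a value of 0.05 (adjusted p 0.90) there as the authors deposited it.

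In granulocytes the family held genes on both sides. By the authors' deposited table, 6 of 76 genes were lower and 2 higher at an adjusted p under 0.05. The background was 12.1% lower and 9.51% higher among genes with a mean of at least 50, and 9.90% and 7.32% over all genes tested, so the counts of called genes did not exceed it. At an unadjusted p under 0.05, 16 genes were lower and 3 higher by DESeq2, against 18.9% and 16.6% of the genes with that mean. The median log2 fold change was -0.18, or 88.5% of the untreated level, and 65 of 76 Wald statistics were below 0, against 51.3% of the genes of like mean and 53.1% of all genes tested.

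The genes lower in irradiated granulocytes were Rpl12 (log2 fold change -0.64, adjusted p 0.0078), Rpl5 (-0.55, adjusted p 0.0089) and Rpl21 (-0.38, adjusted p 0.0092) in the authors' deposited table, with Rpl23 (-0.42, adjusted p 0.018), Rpl13a (-0.71, adjusted p 0.021) and Rps2 (-0.49, adjusted p 0.024). Rpl23 is a further Mdm2-binding protein, and Rpl13a is known from human myeloid cells as part of a complex that silences inflammatory messenger RNAs. Rpl13a carries the lowest mean count per kilobase of the family, 35.6 against a median of 927.6, and 35.4% of its exon bases overlap other genes in GENCODE M21. The 6 were also lower in irradiated TAM, as were 69 of the 76 genes.

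The genes higher in irradiated granulocytes were Rps27l and Rps19. Rps27l, the p53 target, stood at 145.0% of the untreated level (log2 fold change 0.54, adjusted p 0.037) in the authors' deposited table, while its paralogue Rps27 was at 83.0% (-0.27, adjusted p 0.27). Rps19 stood at 133.6% (0.42, adjusted p 0.025) in the authors' deposited table. Of the abundant genes, Rplp0 was at -0.18 (adjusted p 0.33), Rpl13 at -0.18 (adjusted p 0.43) and Rps9 at 0.12 (adjusted p 0.66) in that deposited table of the authors. Rps6 was at -0.13, Rpl11 at -0.07, Rpsa at -0.16 and Rps4x at 0.10 in the authors' deposited table, none of which passed. Rplp1 at -0.29, Rplp2 at -0.09, Rpl3 at -0.35, Rpl10 at -0.24, Rpl22 at -0.32 and Rpl39 at -0.52 did not pass in the authors' deposited table either.

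Across the subsets, Rpl21 was the only gene of the 76 that was lower in all 3 comparisons of the authors' deposited tables. Each of the 3 genes lower in inflammatory monocytes and each of the 6 lower in granulocytes was also lower in TAM, which is 4.3% and 8.7% of the 69 genes lower in TAM. Since 69 of the 76 genes were lower in TAM, most sets of 3 or 6 genes would lie within them. This nesting therefore shows little by itself. The Wald statistics of the 76 genes ranked alike, with Spearman's rho of 0.55 between TAM and inflammatory monocytes, 0.58 between TAM and granulocytes and 0.46 between inflammatory monocytes and granulocytes. These are descriptions across genes, which are not independent, and the subsets came from shared tumours.

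**Figure D3:**
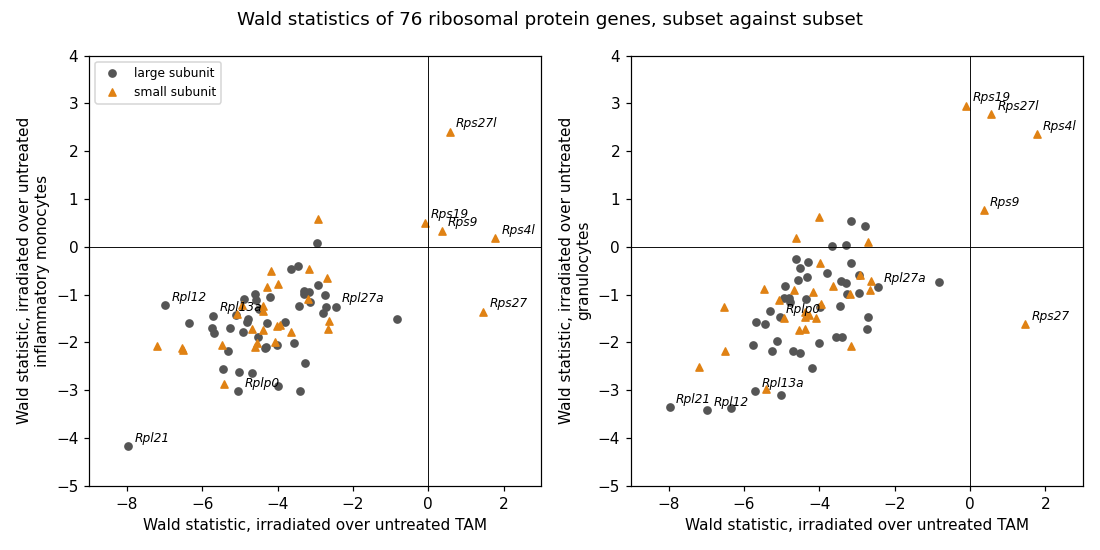
Wald statistics of irradiated over untreated cells for the 76 genes, with TAM on the horizontal axis and inflammatory monocytes (left) or granulocytes (right) on the vertical axis, from the authors' deposited tables. Circles are large-subunit and triangles small-subunit genes. Most points lie in the lower left quadrant, with Rpl21 at the far left, and Rps27l, Rps4l and Rps9 lie above 0 on both axes in both panels.

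Whether the family's change differed between subsets was tested approximately. The ratio of a gene's log2 fold change to its Wald statistic served as standard error, with the largest of its 3 ratios taken for each gene. Since the fold changes were read as shrunken, this error may be too small, and shared tumours were not modelled. The TAM fold change was more negative than that of inflammatory monocytes for 72 of the 76 genes and than that of granulocytes for 75, with median differences of -0.37 and -0.40. The medians over all genes tested were -0.05 and 0.02. By this approximate test from the authors' deposited tables, with Benjamini-Hochberg adjustment over all genes tested in both, 2 of 76 genes, Rpl12 among them, had a more negative fold change in TAM than in inflammatory monocytes, against a background of 1.72% lower and 2.26% higher in TAM over all genes, and 2.28% and 3.01% over those with a mean of at least 50. A share of 2 in 76 is near that background. Against granulocytes 5 genes had a more negative fold change in TAM, among them Rps4x and Rps6, against a background of 2.30% lower and 6.02% higher over all genes, and 3.27% and 8.43% over those with a mean of at least 50. At an unadjusted p under 0.05 the approximate test gave 30 genes with a more negative fold change in TAM than in inflammatory monocytes and 0 with a more positive one, and 34 and 1 for TAM against granulocytes. The shares of the genes with a mean of at least 50 at that unadjusted p were 10.7% more negative and 10.5% more positive in the first pair, and 11.6% and 15.1% in the second.

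Between inflammatory monocytes and granulocytes the approximate test called none of the 76 genes, with 0 at an unadjusted p under 0.05 as well, where the background was 0.159% lower and 0.572% higher at an adjusted p under 0.05, and 4.71% and 8.03% at an unadjusted one among genes with a mean of at least 50. The median difference was -0.05. For Rps27l the difference of inflammatory monocytes minus granulocytes was -0.09, with an interval of -0.63 to 0.44, from the authors' deposited tables. The TAM minus granulocyte difference of Rps27l was -0.43 (interval -0.97 to 0.11, adjusted p 0.40 in the approximate test), so its call in granulocytes alone does not show a difference between the subsets. The same holds for Rps19, with a difference of -0.43 (adjusted p 0.19 in the approximate test on the authors' deposited tables). A test for opposite directions, which asks that a gene be lower in one subset and higher in the other, called 0 of 76 genes in each pair, and 0 at an unadjusted p under 0.05. Its background over all genes was 0.0957% between TAM and granulocytes and 0 in the other pairs.

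Ribosomal protein genes and relatives whose symbols fall outside the rule had a similar median in TAM, -0.58. In inflammatory monocytes their median was -0.10, beside -0.22 for the 76 genes. In granulocytes it was -0.24, beside -0.18. In TAM 5 of 7 were lower and 0 higher in the authors' deposited table. These were Rack1, a scaffold of the small subunit, at -0.97 (51.1% of the untreated level), Rps3a1 at -0.58, Rpl36al at -0.83, Rpl22l1 at -0.77 and Rpl7l1 at -0.40 in the authors' deposited table. Fau, which makes a ribosomal protein fused to a ubiquitin-like protein, was at -0.07 and did not pass in the authors' deposited table. In granulocytes, Rack1 (-0.42, adjusted p 0.036) and Rpl22l1 (-0.61, adjusted p 0.039) were lower in the authors' deposited table, and in inflammatory monocytes 0 of 7 passed and 2 had an unadjusted p under 0.05 by DESeq2. In inflammatory monocytes Rps3a1 was at -0.31 and Rack1 at -0.28, and Fau, Rpl22l1, Rpl36al and Rpl7l1 lay between -0.10 and 0.14 in the authors' deposited table. Granulocyte values were -0.17 for Rps3a1, -0.24 for Fau, -0.30 for Rpl36al and 0.03 for Rpl7l1 in the authors' deposited table. For these and the lists below, the background among genes with a mean of at least 50 was 17.3% lower and 18.8% higher in TAM. It was 2.30% and 4.80% in inflammatory monocytes, and 12.1% and 9.51% in granulocytes. At an unadjusted p under 0.05 by DESeq2, it was 9.21% and 12.8% in inflammatory monocytes.

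Genes of mitochondrial ribosomal proteins, which are made in the cytosol for a separate ribosome, were also lower in TAM. Of 77 tested, 51 were lower and 0 higher in the authors' deposited table, with a median of -0.40, led by Mrps28 (-1.09), Mrpl12 (-0.89) and Mrpl13 (-0.82). In inflammatory monocytes 0 of 77 passed, 5 had an unadjusted p under 0.05 by DESeq2, and the median was 0.03 in the authors' deposited table. Mrpl4, of highest mean, was at -0.09 there, per the authors' deposited table. In granulocytes 3 were lower and 3 higher with a median of 0.07, among them Mrpl33 at -0.81, Mrps28 at -0.87 and Mrps6 at -0.70 in the authors' deposited table. These granulocyte counts did not exceed the background of 12.1% lower and 9.51% higher among genes with a mean of at least 50. The mitochondrial and cytosolic medians thus had the same sign in TAM. In the other subsets the mitochondrial medians lay close to those of all genes with a mean of at least 50. These were 0.015 in inflammatory monocytes and -0.013 in granulocytes, beside cytosolic medians of -0.22 and -0.18.

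Translation factors moved with the ribosomal proteins in part. The list of 10 elongation and release factors also holds Eef1akmt1 and Eef1e1, which are not such factors. Both were lower in TAM, at -0.62 and -0.72, and Eef1e1 was lower in granulocytes too. Of the 10, 7 were lower in TAM and 0 higher in the authors' deposited table, led by Eef1d (-0.84), Eef1g (-0.80) and Eef1b2 (-0.67), the exchange factors of Eef1a1. Eef1a1 itself, whose messenger RNA also carries a TOP motif, was at -0.08 and did not pass in the authors' deposited table. In granulocytes 4 of 10 were lower, with Eif5a at -0.96 (51.6% of the untreated level), the release factor Etf1 at -0.97 and Eef1b2 at -0.53 in the authors' deposited table. In inflammatory monocytes none of the 10 passed, and 4 had an unadjusted p under 0.05 by DESeq2. Eif5a, of highest mean there, was at -0.29 (adjusted p 0.23) in the authors' deposited table.

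Of 31 initiation factors, 17 were lower and 2 higher in TAM, 3 lower in inflammatory monocytes and 8 lower in granulocytes in the authors' deposited table. Those higher in TAM were Eif4g3 (0.61) and Eif5 (0.41) in the authors' deposited table. Eif4a1, the cap-complex helicase, was lower in TAM at -0.67, as were Eif3i (-0.71) and Eif3l (-0.55) of the Eif3 complex, in the authors' deposited table. Eif1, a start-codon selection factor, was lower in granulocytes at -0.80, with Eif1a at -0.61 and Eif5 at -0.60, in the authors' deposited table. Eif5 thus stood higher in irradiated TAM and lower in irradiated granulocytes. Eif4b (-0.38) was lower in inflammatory monocytes, as were Eif4e (-0.40) and Eif1 (-0.38), in the authors' deposited table.

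A list of 22 other genes with TOP messenger RNAs or related growth control, which shares members with both factor lists, held 12 lower genes in TAM, 7 in granulocytes and 5 in inflammatory monocytes, with 0 higher in each, in the authors' deposited tables. Its leading genes were Nap1l1, a histone chaperone, at -0.88 in TAM, at -0.56 in inflammatory monocytes and at -0.66 in granulocytes of the authors' deposited tables. Hnrnpa1, a splicing regulator, was at -1.17, -0.60 and -0.85 in the same order in the authors' deposited tables. Npm1, a nucleolar chaperone of ribosome assembly, was likewise at -0.88, -0.45 and -0.58 in the authors' deposited tables. These genes passed in all 3 subsets, as Rpl21 did.

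Regulators of mTOR and of TOP messenger RNAs gave no common direction. Of 20 genes, 2 were higher and 2 lower in TAM in the authors' deposited table. Neither count exceeded the background of 18.8% higher and 17.3% lower among genes with a mean of at least 50. Sesn2 and Ddit4, stress-induced inhibitors of mTOR complex signalling, were higher in irradiated TAM at 297.9% (log2 fold change 1.58, adjusted p 9.3e-11) and 354.1% (1.82, adjusted p 1.6e-06) of the untreated level in the authors' deposited table. Akt1s1 (-0.48) and Sesn1 (-0.69), also mTOR inhibitors, were lower in the authors' deposited table. In granulocytes Sesn2 (-0.73) and Rheb (-0.25), the activator of mTOR, were lower in the authors' deposited table, and in inflammatory monocytes none passed while 4 had an unadjusted p under 0.05 by DESeq2. Sesn2, of highest mean there, was at -0.12 in inflammatory monocytes of the authors' deposited table. Larp1 and Mtor were at -0.11 and -0.05 in TAM and did not pass in the authors' deposited table. No protein or phosphorylation was measured.

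Small nucleolar RNA host genes, many of which are TOP transcripts whose introns carry guide RNAs for ribosomal RNA modification, were mixed. In TAM 5 of 13 were lower and 1 higher, with Gas5 at -0.54, Snhg5 at -0.82, Snhg20 at -1.22 and, on the other side, Snhg15 at 0.84 in the authors' deposited table. In granulocytes 2 of 12 tested were lower, Gas5 (-0.76) and Snhg5 (-0.88), in the authors' deposited table. In inflammatory monocytes 1 of 12 tested was higher, Zfas1 at 0.91 in the authors' deposited table. Counts of 1 or 2 genes are near the background given above, and the 1 higher in TAM did not exceed it. Rows of ribosomal protein pseudogenes held 7 lower and 0 higher of 47 tested in TAM, where reads could also come from the parent genes, with Rps16-ps2 at -0.92, Rps13-ps2 at -0.96 and Rpl38-ps2 at -1.25 in the authors' deposited table. A share of 7 in 47 is near the 12.5% that were lower over all genes tested in TAM. In inflammatory monocytes 0 of 23 passed, with 2 at an unadjusted p under 0.05 by DESeq2, and in granulocytes 1 of 35 was lower in the authors' deposited table.

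**Figure D4:**
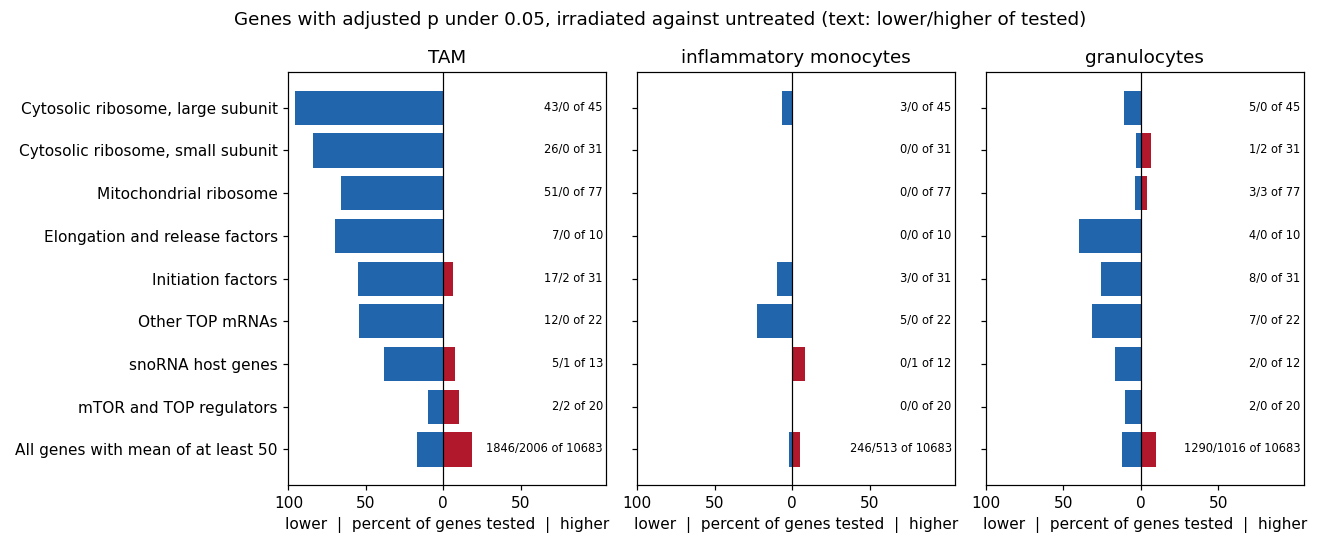
Percent of the genes tested that were lower (blue, to the left) or higher (red, to the right) in irradiated than in untreated cells at an adjusted p under 0.05, per gene list and subset, with counts as lower and higher of tested. In TAM the large subunit reaches 43 of 45 and the small subunit 26 of 31, above all other lists drawn, and the bottom row gives all genes with a mean of at least 50.

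Markers of cell types and of proliferation moved with the same comparisons. In irradiated TAM 10 of 12 neutrophil, 5 of 7 monocyte and 3 of 5 tested eosinophil marker genes were higher, while 4 of 8 dendritic cell, 2 of 8 T and NK cell and 2 of 6 fibroblast genes were lower, in the authors' deposited table. For 4 of the 10 neutrophil genes (S100a8, S100a9, Ngp and Camp) the deposited fold change had the opposite sign to the Wald statistic, and direction was taken from the Wald statistic. Over all genes tested in TAM, 12.5% were lower and 13.9% higher. All 10 proliferation genes were lower in irradiated TAM, with a median of -2.36 in the authors' deposited table. Macrophage markers held 2 of 10 higher and 0 lower there. Of 6 epithelial or tumour genes 1 was higher, while 5 had an unadjusted p under 0.05 by DESeq2. All 6 had a Wald statistic above 0, with a median log2 fold change of 1.56. Of 5 B and plasma cell genes 0 passed, with 2 at an unadjusted p under 0.05 by DESeq2.

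In inflammatory monocytes 7 of 12 neutrophil, 8 of 10 macrophage, 2 of 5 eosinophil and 1 of 5 B and plasma cell genes were higher, and 3 of 10 proliferation genes lower (median -0.98), in the authors' deposited table. In granulocytes 4 of 10 macrophage, 4 of 7 monocyte, 1 of 12 neutrophil and 1 of 5 eosinophil genes were higher, with 9 of 10 proliferation genes (median -1.84), 2 of 6 fibroblast genes and 1 of 8 T and NK cell genes lower, in the authors' deposited table. Over all genes tested, 1.77% were lower and 4.13% higher in inflammatory monocytes, and 9.90% and 7.32% in granulocytes. The 1 of 12 neutrophil and 1 of 8 T and NK cell genes in granulocytes are near those shares. The part of the marker shifts in the ribosomal protein values was not tested. The ribosomal protein medians beside these proliferation medians were -0.18 in granulocytes, -0.22 in inflammatory monocytes and -0.58 in TAM of the authors' deposited tables.

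The TAM Wald statistics were widely spread. Their robust SD over genes with a mean of at least 50 was 2.72, and after division by it no gene of the table passed, ribosomal or other. That SD also holds any changes between irradiated and untreated cells, which the division removes with the rest. It therefore cannot tell how far the calls are inflated. All counts above use the authors' statistics as deposited.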

How the data were processed

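Libraries were sequenced on an Illumina NovaSeq after transposase tagging of small cDNA amounts, a step that keeps no strand, per the labels' protocols. Per the submitters' processing notes, fastp 0.20.1, STAR 2.7.6a, DESeq2 1.28.1, R 4.0.2 and the build mm39 were used; the sources used here give neither the counting, the annotation nor the fitted model.

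The authors deposited 3 tables of comparisons and their values were taken as they stand. The signal column of the authors holds the normalised count averaged over libraries, the same in the 3 tables. The log2 fold changes of the authors were read as shrunken. The authors' deposited score column holds the Wald statistic, and direction was taken from its sign. The authors' p-values and adjusted p-values (DESeq2, Wald test) were used at 0.05. Single-library values were not used here, so no SD between replicates, no depth and no interval from counts is given. The p-values rest on the authors' model, which is not given. As the mean counts are the same in all 3 comparisons, the libraries were probably normalised and fitted together. The p-values may then rest on a spread pooled over the subsets, in which a tumour can enter repeatedly. They need not measure the spread between tumours within the subset compared.

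From these tables, genes were counted by direction beside all genes tested, and differences between subsets were approximated as described with them, by a test chosen after seeing the data. The members and gene lists were chosen with earlier results of these data known. Named per comparison were the 5 called genes of smallest p in each direction, called genes on the rarer side, the 3 of highest mean that did not pass, and a fixed set of genes. Other genes, among them the exceptions, those of the subset differences, Rpl38, Snhg15, Larp1 and Mtor, were chosen after their values were seen. Some genes that these rules take are not reported here. Sequences and overlaps came from RefSeq (GRCm38.p6) and GENCODE M21, matched by symbol. The code for the adjustment, the opposite-direction test and the difference test was tested on simulated data, which checks the code and not the counts reported. Computations ran in Python 3.11.15, using scipy 1.17.1, pandas 2.3.3 and numpy 2.4.6.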

Additional observations from a re-analysis of the deposited data

Results flagged for a closer look

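By the approximate test of a difference between subsets, computed from the authors' deposited tables with Benjamini-Hochberg adjustment over all genes tested in both, 2 of the 76 ribosomal protein genes differed between TAM and inflammatory monocytes and 5 between TAM and granulocytes. Each of these was more negative in TAM. Over all genes tested, 1.72% were more negative in TAM in the first pair and 2.30% in the second, so the 2 of 76 is near the background. The adjusted p of this test was 0.013 for Rpl12 in the first pair, and 0.042 for Rps6 and 0.029 for Rps4x in the second. The difference in log2 fold change of TAM minus inflammatory monocytes was -0.98 for Rpl12 (approximate 95% interval -1.50 to -0.46). For TAM minus granulocytes it was -0.59 for Rps6 (-0.99 to -0.20) and -0.68 for Rps4x (-1.11 to -0.25). In granulocytes themselves Rps4x was at 0.10 on the log2 scale of the authors' deposited table and did not pass. Neutrophil, monocyte and proliferation markers also moved in TAM, and their part in these differences was not tested.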

How the results depend on the processing

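No paired analysis was possible because the irradiated and untreated samples share no tumour numbers and single-library values were not used here. Leaving out replicates in turn was not run, since it needs those values. After division of the Wald statistics by their robust SD, the count of lower genes was 0 in TAM, 0 in granulocytes and 0 in inflammatory monocytes, and that of higher genes in granulocytes was 0; under it 0 of 16851 genes passed in TAM, 0 of 15679 in granulocytes and 25 of 14506 in inflammatory monocytes, so it tells nothing apart in TAM or granulocytes. At an adjusted p under 0.01, 1 gene was lower in inflammatory monocytes, and 3 were lower and 0 higher in granulocytes. At 0.1, 7 were lower in inflammatory monocytes. With adjustment over every gene that has a p-value, 1 gene was lower in inflammatory monocytes and 1 higher in granulocytes. With a log2 fold change of at least 0.5 in size, 0 were lower in inflammatory monocytes, and 3 lower and 1 higher in granulocytes. Without paralogues and with ribosomal protein genes outside the symbol rule added, 1 was higher in granulocytes, since Rps27l drops out. The approximate difference test, whose alternatives were chosen after seeing the data, gave 5 genes between TAM and inflammatory monocytes and 9 between TAM and granulocytes with each table's own ratio, and 5 and 11 at an adjusted p under 0.1. The cause of these shifts was not tested.

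Outside the division by the robust SD, the TAM count of lower genes stayed between 50 and 70 of the genes counted, with 0 higher. The opposite-direction counts stayed at 0, and the subunit medians moved by less than 0.02. Re-centring on the median gene moved no count by over 1.5 times, and no scaling shifted the median gene by over 0.1. Of the named-gene results under alternatives, 380 kept their side of the threshold, 43 lost it, 4 gained it and none reversed. The 380 include genes that did not pass as reported. Most alternatives cannot change a direction, so the absence of reversals tells little. Depth could not be read from the tables.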

Other observations

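Some ribosomal protein genes that cells in general need are listed at very low means in the authors' deposited tables. Rpl24 had a mean normalised count of 3.39 and Rps10 of 9.54, which is 3.3 and 4.1 per kilobase of exon, against a median of 927.6 per kilobase over the 76 genes. In GENCODE M21, 47.0% of the exon bases of Rpl24 overlap Gm28037 on the same strand, and 28.7% of those of Rps10 overlap RPS10-NUDT3 or Gm15420. Rpl13a had a mean of 75.3 in the authors' deposited tables. How the counting treated such overlaps was not tested.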
